A study of Mus musculus with 20 samples.

Results

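Interferon response genes are genes whose transcription rises when a cell senses interferon. The 9 described here are Ifit1, Ifit2, Ifit3, Isg15, Irf1, Irf7, Oasl2, Rsad2 and Usp18, taken by symbol from a table of 54532 mouse genes, and all 9 were found. They were followed in undamaged and regenerating mouse liver, labelled as isolated hepatocytes for only part of the libraries, and in hepatocyte organoids. In all there were 20 RNA-seq libraries.

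All mice were C57BL/6, with no transgene or drug in any group. The 2 undamaged libraries came from livers without surgery. Another 16 libraries, 2 at each of 8 times (6, 12, 24, 48 and 72 h, then 7, 14 and 21 d), came from livers after partial hepatectomy (PHx), the surgical removal of 70% of the liver, after which the remnant regrows. The labels call these cells freshly isolated primary hepatocytes for the first submission, which holds 1 library of each PHx time, and name only liver for the second, which holds the other 8. The 2 Hep-Org libraries came from organoids grown from hepatocytes in Matrigel, a basement-membrane gel, and passaged. No sham-operated group is named, and neither age nor pooling of animals is stated. Since no label ties the libraries of a group to different mice, p-values measure the spread between libraries only.

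Interferons are secreted proteins that warn neighbouring cells of infection. Type I interferons bind the receptor formed by Ifnar1 and Ifnar2, whose kinases Jak1 and Tyk2 phosphorylate transcription factors of the STAT family. Stat2 joins Irf9 in a complex that binds the interferon-stimulated response element (ISRE) of target promoters, while interferon-gamma acts through gamma-activated sequences (GAS). In the liver, Kupffer cells, endothelial cells and hepatocytes all carry the type I receptor.

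The members fill 3 roles in that pathway. Ifit1, Ifit2 and Ifit3 encode proteins with tetratricopeptide repeats that bind viral RNA or each other, Oasl2 an oligoadenylate synthetase-like protein, and Rsad2 viperin, an enzyme that makes a chain-terminating nucleotide. Isg15 encodes a ubiquitin-like modifier, and Usp18 the protease that removes it and that also damps signalling at the type I receptor. Irf1 and Irf7 encode transcription factors that carry the response further.

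On the mm10 mouse genome (GENCODE M21 annotation, the same assembly as GRCm38) the 3 Ifit genes lie together on chromosome 19 in the plus orientation, Ifit2 at chr19:34550694-34576419, Ifit3 at chr19:34583531-34588731 and Ifit1 at chr19:34640871-34650009. Isg15 is at chr4:156199424-156200818, Oasl2 at chr5:114896936-114912234, Usp18 at chr6:121245906-121270917, Irf7 at chr7:141262706-141266481, Irf1 at chr11:53770014-53778374 and Rsad2 at chr12:26442746-26456452. All 9 are protein-coding. Ifit3 has a near-identical neighbour, Ifit3b, and how reads shared by the pair were assigned is not given in the sources used here. Irf7 overlaps Phrf1, which lies on the opposite strand and had a mean of 2.20 FPKM. Whether counting used strand is not stated, so reads of such overlapping genes cannot be told apart.

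The RefSeq table of promoter windows (GRCm38.p6, 250 bases before to 50 after a start) held 10 windows for 8 of the 9 members, and Usp18 was not among them. The ISRE core was searched as GAAANNGAAA on both strands and matched in 4 of the 10 windows, those of Ifit1, Ifit3, Isg15 and Rsad2, against 3.44% of all 32851 windows. The GAS was searched as TTCNNNGAA, which reads the same on both strands, and matched in 2 windows, 1 of the pair for Irf1 and 1 of the pair for Ifit2, against 8.3% of all windows. No ISRE match overlapped a GAS match. Shown here are 120 bases of each window with an ISRE match, running from 170 to 51 bases before the start, and the Irf1 window for contrast, with the matches in capitals.
Ifit1, chr19:34640719-34640838, plus strand: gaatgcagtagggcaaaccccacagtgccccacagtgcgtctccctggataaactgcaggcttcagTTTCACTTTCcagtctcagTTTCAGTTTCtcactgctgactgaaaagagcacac
Ifit3, chr19:34583359-34583478, plus strand: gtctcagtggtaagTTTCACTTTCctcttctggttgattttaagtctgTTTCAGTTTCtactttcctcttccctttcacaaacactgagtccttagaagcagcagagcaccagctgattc
Isg15, chr4:156200869-156200988, minus strand: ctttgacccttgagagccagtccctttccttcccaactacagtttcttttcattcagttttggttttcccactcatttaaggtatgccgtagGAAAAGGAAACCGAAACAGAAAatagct
Rsad2, chr12:26456503-26456622, minus strand: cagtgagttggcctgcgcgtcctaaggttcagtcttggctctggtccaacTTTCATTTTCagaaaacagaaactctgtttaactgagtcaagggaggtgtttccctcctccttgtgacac
Irf1, chr11:53769844-53769963, plus strand: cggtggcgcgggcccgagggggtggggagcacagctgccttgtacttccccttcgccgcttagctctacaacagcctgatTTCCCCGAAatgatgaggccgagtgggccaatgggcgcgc
Ifit1 and Ifit3 each carry a pair of ISRE cores, all 4 on the strand opposite to the gene. Isg15 carries 3 cores that overlap each other in 1 run of 22 bases. A match describes letters in a window and is not evidence of binding.

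**Figure D1:**
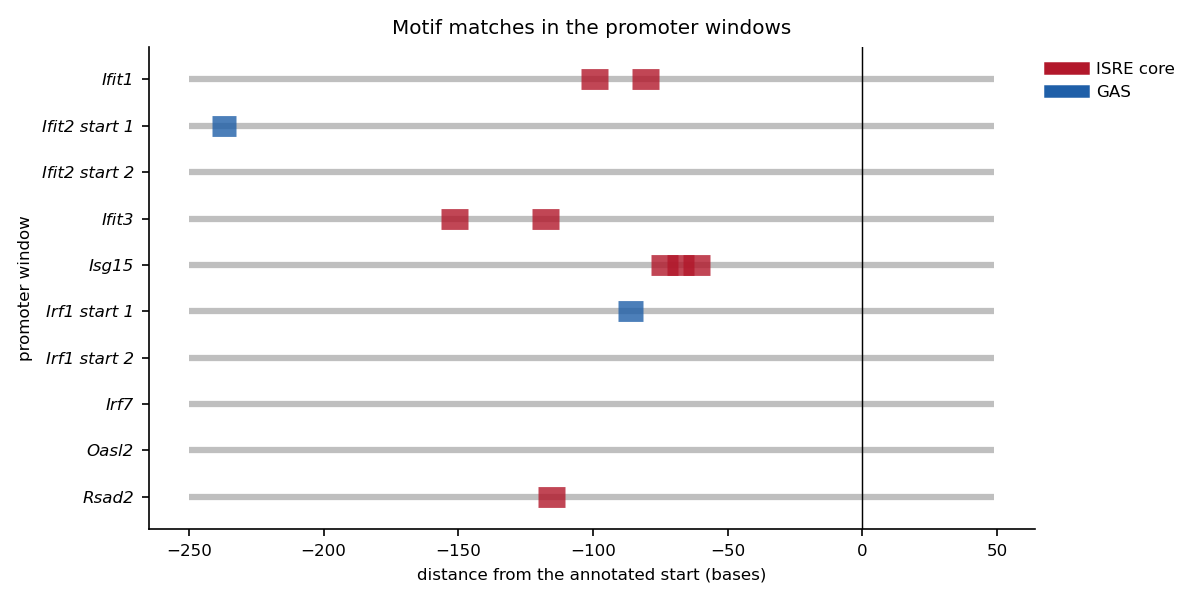
Matches of the ISRE core (red) and the GAS (blue) in the 10 promoter windows of 8 members, by distance in bases from the annotated start at 0. The ISRE matches of Ifit1, Ifit3, Isg15 and Rsad2 all lie between positions -156 and -57.

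Levels are given in FPKM, fragments per kilobase of transcript scaled by a library size that the sources do not define. FPKM corrects for gene length. All 9 members reached 1 FPKM in at least 2 libraries, the condition for testing, which 13162 of the 54532 genes met. The FPKM steps of low genes allowed whole reads to be recovered, 13.7 to 41.3 M reads per library. These were 0.477 (Hep-Org replicate 2) to 1.94 times (undamaged replicate 2) the library size that the steps imply. Levels of different libraries therefore need not share 1 scale. The 180 member values rested on 8 to 2787 reads, with a median of 181.5, and 19 of them on fewer than 50. Between 0.0422 FPKM for Rsad2 in an organoid and 31.3 FPKM for Irf7 at 14 d, these are genes of low to moderate level, and no member was at 0 in any library.

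Several libraries stood apart from their group in ways that touch the results. The undamaged libraries differed from each other, with Saa1, an acute phase protein, at 19.9 FPKM in replicate 1 and 20927 in replicate 2, and with Clec4f, a Kupffer cell marker, at 9.16 and 183. The 6 libraries of 48 h, 72 h and 7 d had 13.6 to 23.7 FPKM of Xist, against at most 0.137 in the other liver libraries. Ddx3y, a gene of the Y chromosome, ran the other way, at 0 FPKM in those 6 and 9.66 to 21.4 in the others. Those times and this difference between animals in sex-linked transcripts therefore cannot be told apart. Xist was 0.00128 FPKM in Hep-Org replicate 1 and 25.3 in replicate 2, and Ddx3y was 9.90 and 0.00756. Markers of cells other than hepatocytes were present in every liver library, the summed level of 10 Kupffer cell and macrophage markers running from 41.0 to 1069 FPKM. In the organoids the summed level of 6 hepatocyte markers was 1443 and 5841 FPKM against 20510 to 74626 in liver, and that of 6 cholangiocyte markers 2729 and 4444 against 5.39 to 335. Hepatocyte markers were thus lower, and cholangiocyte markers higher, than in any liver library. With bulk RNA, fewer cells of a type and less RNA per cell cannot be told apart in any result that follows.

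Ifit3 showed the widest course. It stood at 2.40 and 5.74 FPKM in the undamaged libraries (replicates 1 and 2), at 2.0 and 3.38 at 6 h, at 0.259 and 2.29 at 12 h and at 3.49 and 3.57 at 24 h. It then read 5.93 and 1.83 FPKM at 48 h, 9.12 and 11.7 at 72 h, 11.8 and 13.2 at 7 d, 15.6 and 6.49 at 14 d, and 9.89 and 4.35 at 21 d. Every library of 6, 12 and 24 h lay below every library of 14 and 21 d, as for 5.46% of all genes tested. At 48 h the replicates were split. The organoids held 0.21 and 0.529 FPKM, resting on 16 and 47 reads, and only 12 h replicate 1, with 10 reads, was as low among the livers. By group mean the order ran from Hep-Org through 12 h, 6 h, 24 h, 48 h, undamaged, 21 d, 72 h and 14 d to 7 d, and 8 of the 9 neighbouring pairs overlapped.

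Ifit1 followed a similar course at a lower level. The undamaged libraries held 2.06 and 2.87 FPKM, those of 6 h 1.06 and 1.73, those of 12 h 0.459 and 2.24, and those of 24 h 4.32 and 3.27. Later values were 1.81 and 1.20 FPKM at 48 h, 4.67 and 5.52 at 72 h, 6.48 and 6.76 at 7 d, 7.31 and 3.30 at 14 d, and 8.69 and 4.21 at 21 d. Both libraries lay above undamaged at 24 h and under it at 48 h, and neither difference was called. The organoids, at 0.233 and 0.806 FPKM, were lower than 17 of the 18 liver libraries. Ifit1 and Ifit3 had the highest correlation of any of the 36 member pairs over the 18 liver libraries, r = 0.90 on log2(FPKM + 1), a description across libraries that share groups.

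Usp18, the brake on type I signalling, was lowest at 6 h and highest at 14 d. The undamaged libraries held 2.46 and 3.95 FPKM, those of 6 h 0.828 and 1.06, those of 12 h 1.80 and 2.71, and those of 24 h 4.95 and 4.64. At 48 h it read 2.56 and 3.56 FPKM, at 72 h 4.04 and 6.47, at 7 d 5.24 and 4.22, at 14 d 12.2 and 3.90, and at 21 d 6.55 and 5.52. The 6 h libraries were the lowest 2 of the 18 livers, and 14 d replicate 1 was far above its partner. The organoids held 1.16 and 1.58 FPKM, above 6 h and below the other liver libraries.

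Rsad2 differed from the other antiviral effectors in that undamaged liver was among its higher groups. It stood at 2.30 and 2.65 FPKM there, at 0.698 and 1.31 at 6 h, at 0.75 and 1.41 at 12 h, and at 2.22 and 1.12 at 24 h. It was 0.739 and 0.661 FPKM at 48 h, 2.17 and 1.48 at 72 h, 3.97 and 2.93 at 7 d, 2.14 and 1.58 at 14 d, and 1.67 and 2.74 at 21 d. The 7 d libraries were the highest of all 20. The organoids, at 0.0422 and 0.177 FPKM from 8 and 39 reads, lay below all 18 liver libraries, which no other member did. The same held for 16% of all genes tested.

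Irf7, the transcription factor that amplifies the type I response, varied widely between replicates. Its 2 values were 5.02 and 18.4 FPKM in undamaged liver, 5.02 and 12.1 at 6 h, 2.16 and 9.05 at 12 h, 10.5 and 4.91 at 24 h, and 6.43 and 5.60 at 48 h. They were 9.69 and 7.62 FPKM at 72 h, 8.37 and 15.2 at 7 d, 31.3 and 10.5 at 14 d, and 13.8 and 6.37 at 21 d. All 9 neighbouring pairs in its order of group means overlapped. The organoids, at 2.86 and 2.06 FPKM, were lower than every liver library except 12 h replicate 1.

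The other 4 members are given by their ranges. Ifit2 ranged from 0.448 to 5.07 FPKM in the livers, lowest at 12 h and highest at 72 h. Isg15 ranged from 2.33 FPKM in 12 h replicate 1 to 19.2 in 14 d replicate 1, and the organoids, at 4.87 and 4.86, lay within that range. Irf1 was the flattest, with 3.16 to 10.3 FPKM in the livers and 5.94 and 5.22 in the organoids, and its highest group mean, at 7 d, was 2.70 times its lowest, at 12 h. Oasl2 had the lowest median level in liver, 1.14 FPKM, and ran from 0.168 FPKM in undamaged replicate 1 to 2.91 in 72 h replicate 2, and its 6 h libraries, at 2.54 and 1.14, were not low. In all 36 pairs the members correlated positively over the 18 livers, from 0.04 to 0.90 with a median of 0.60, and Oasl2 had the lowest mean correlation with the others, 0.33.

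**Figure D2:**
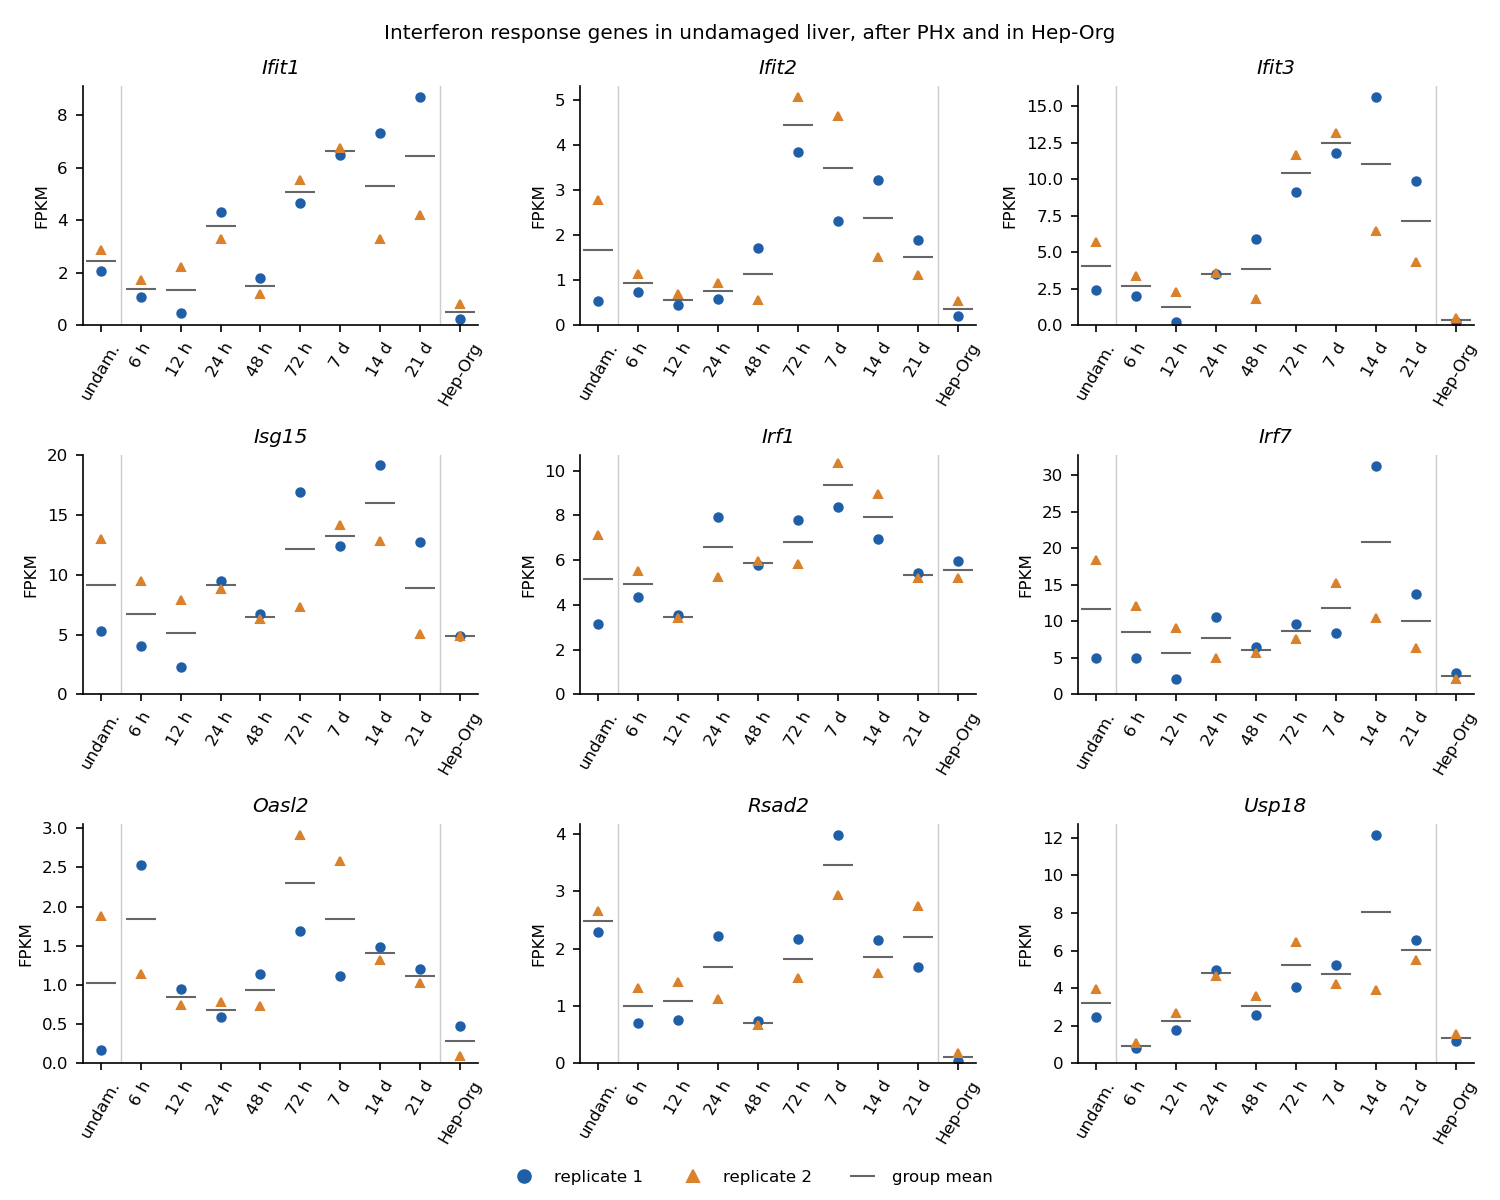
FPKM of each member (vertical axes, each from 0) in the 2 libraries of each group (circles replicate 1, triangles replicate 2, dashes group means), with time after PHx along the horizontal axis. Ifit3 lies at 0.259 to 3.57 FPKM from 6 to 24 h and at 4.35 to 15.6 at 14 and 21 d, and the organoids are near the floor for the Ifit genes and Rsad2 but not for Irf1.

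**Figure D3:**
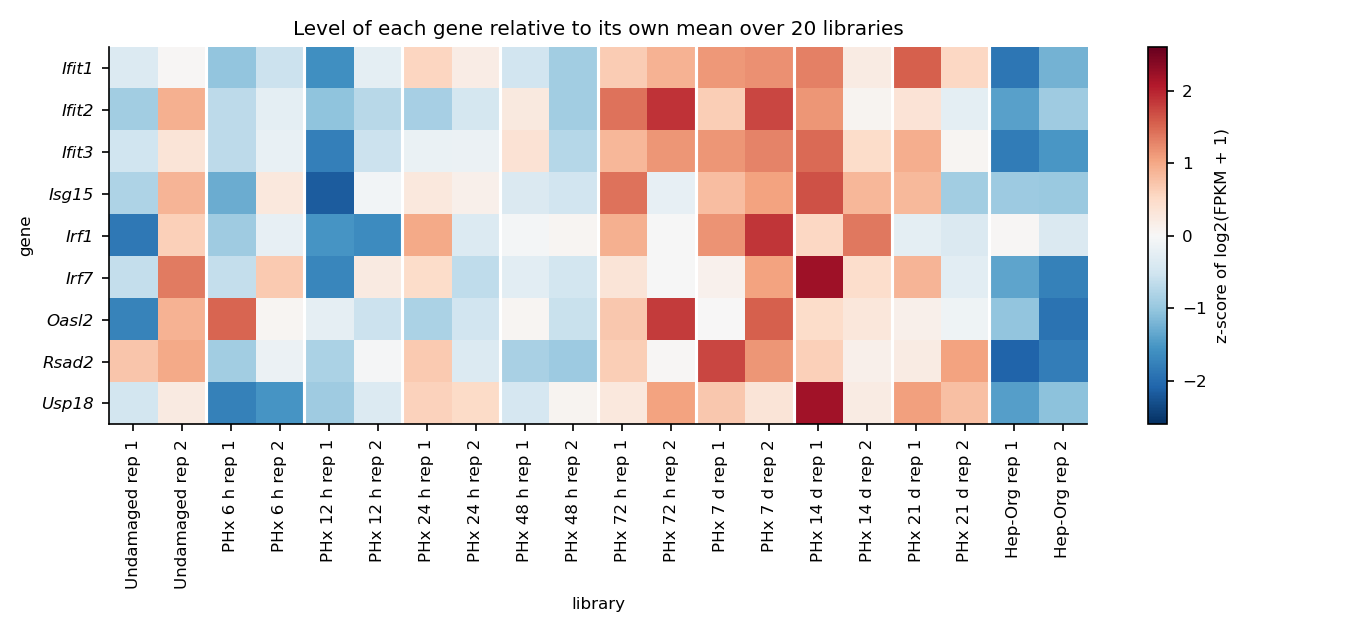
Each member's log2(FPKM + 1) as a z-score over the 20 libraries (columns, 2 per group), red above and blue below that gene's own mean. Most members are blue at 12 h replicate 1 and in Hep-Org and red from 72 h to 14 d. The red of 14 d replicate 1 is darkest for Irf7 and Usp18. Irf1 is near its mean in Hep-Org (0.04 and -0.37), and Usp18 is bluest at 6 h (-1.76 and -1.53). Irf1 and Oasl2 are also blue in undamaged replicate 1 (-1.85 and -1.73), and Oasl2 is red in 6 h replicate 1 (1.51).

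Each PHx time was first compared with undamaged liver. The 2 undamaged libraries differed, with summed levels of the acute phase genes of 13714 and 186168 FPKM, and no sham-operated group is named. The comparison therefore cannot isolate what surgery and regrowth changed. Tests used limma on log2(FPKM + 1) across all genes, with Benjamini-Hochberg adjustment, and a call needed both an adjusted p under 0.05 and a difference of at least 1 on that log2 scale, which understates the change of low genes. At none of the 8 times was a member called, and limma-voom on the recovered reads also called 0 at each. Over all 13162 genes, the share called was 13.3% at 6 h and 5.56% at 12 h, fell to 0.228% by 24 h and 0.691% by 48 h, was 3.23% at 72 h and 0.608% at 7 d, and reached 0% for both 14 d and 21 d, where 1345 and 1327 genes had an unadjusted p under 0.05. Read against these shares, 0 of 9 is no result about the members.

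Without adjustment, members with p under 0.05 numbered 2 at 6 h and again 2 at 12 h, then 0 at 24 h, 1 at 48 h and 2 at 72 h, and later 3 at 7 d, 3 at 14 d and 1 at 21 d. Of all genes tested, 33% had such a p at 6 h and 23.3% at 12 h. The share was then 13.4% on the next day (24 h), 12.4% by 48 h and 21.9% for the 72 h libraries, and from 7 d on it was 11.5%, 10.2% and 10.1%. At 6 h the median difference of the members was -0.37, with 7 of 9 below 0, and at 7 d it was 0.60, with 9 of 9 above 0, against medians over all genes of 0.01 and -0.04. Usp18 at 6 h came nearest to a call, at -1.09 ± 0.37 (SE; adjusted p = 0.0542 in limma). Rsad2 at 6 h passed the adjusted p, at 0.0461, with a difference of -0.81 that is under the size asked. All 8 comparisons share the same 2 undamaged libraries. Without undamaged replicate 2, Oasl2 was called higher at 6 h (1.24), Ifit2 and Oasl2 at 72 h (1.81 and 1.47) and Irf1 at 7 d (1.31), and without 6 h replicate 2, Rsad2 was called lower at 6 h (-1.03). Leaving out either 14 d library called Usp18 lower at 6 h.

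The time course was then tested without the undamaged libraries, by a moderated F test over the 8 PHx times. Members called were Ifit1, Ifit2, Ifit3, Rsad2 and Usp18, 5 of 9, against 13.6% of all genes. On the log2(FPKM + 1) scale the range of group means was 2.73 for Ifit3 (adjusted p = 0.0258), 2.05 for Usp18 (0.0193), 1.81 for Ifit1 (0.0175), 1.79 for Ifit2 (0.0468) and 1.38 for Rsad2 (0.0323), all adjusted p from limma. Ifit1 and Ifit3 peaked at 7 d from a low at 12 h, Ifit2 at 72 h from 12 h, Rsad2 at 7 d from 48 h, and Usp18 at 14 d from 6 h. The 4 members not called, Isg15, Irf1, Irf7 and Oasl2, had ranges of 0.95 to 1.77.

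The called set depended on single libraries. The Ifit2 call was lost under 21 of 28 alternatives, among them leaving out any of 15 single libraries, and the Rsad2 call under 14 of 28, with 8 such libraries. Only Ifit1 was called without 6 h replicate 1, and Ifit1 and Usp18 without 7 d replicate 2. Counts fell to 3 without 6 h replicate 2, 12 h replicate 1, 48 h replicate 2, 72 h replicate 2, 14 d replicate 1 or either Hep-Org library, which share the estimate of spread. With the Xist-high times left out, so that only 6, 12, 24 h, 14 and 21 d were compared, an alternative chosen after seeing the data, Ifit1, Ifit3 and Usp18 were called.

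The libraries of 6 to 24 h, when hepatocytes leave rest and enter the cell cycle, were next set against those of 14 to 21 d, when regrowth is over. Ifit1, Ifit3 and Usp18 were lower early and no member was higher, 3 of 9 called lower against 4.4% of all genes called lower and 3.46% called higher. All 9 differences were below 0, with a median of -0.74, against 0.03 over all genes. Ifit3 averaged 2.50 ± 1.28 FPKM early (SD, n = 6) and 9.09 ± 4.92 late (SD, n = 4), a difference of -1.52 ± 0.35 (SE; limma adjusted p = 0.0098). All 6 early libraries lay below all 4 late ones, as for 5.46% of all genes, and Ifit3 was the only member of which this held.

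Ifit1 averaged 2.18 ± 1.43 FPKM early (SD, n = 6) and 5.88 ± 2.54 late (SD, n = 4), a difference of -1.16 ± 0.26 (SE; limma adjusted p = 0.0081). Its 24 h replicate 1, at 4.32 FPKM, lay within the late range of 3.30 to 8.69. Usp18 averaged 2.66 ± 1.78 FPKM early and 7.03 ± 3.59 late, a difference of -1.18 ± 0.24 (SE; limma adjusted p = 0.0048), and both 24 h libraries lay within the late range. Of the 6 members not called, Irf7 had the largest difference, -0.93 (95% interval -1.89 to 0.03), and Oasl2 the smallest, -0.14 (-0.67 to 0.39).

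The 2 submissions differed in the size of this contrast. Among first-submission libraries, 3 early and 2 late, all 9 members were lower early, with a median difference of -1.57. Among second-submission libraries, also 3 and 2, 8 of 9 were lower, with a median of -0.45. Ifit3 differed by -2.39 in the first and -0.65 in the second, Ifit1 by -1.83 and -0.50, and Usp18 by -1.68 and -0.69. Isg15 differed by -1.57 in the first and 0.09 in the second, and Irf7 by -1.86 and -0.0017, while Rsad2 differed by -0.45 in both. Whether the submissions differ was not tested. Without 14 d replicate 1, a first-submission library, no member was called, Ifit3 then differing by -1.24, Ifit1 by -0.93 and Usp18 by -0.83. Without 21 d replicate 1 only Usp18 was called, and without 12 h replicate 1 Ifit3 and Usp18.

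Other cell types and RNA makeup also moved between these times. Neutrophil markers were called higher early in 4 of 7 cases, their sum running from 21.8 to 843 FPKM early and from 3.06 to 69.2 late. Erythroid markers were higher in 4 and lower in 1 of 5 tested, with sums of 82.7 to 7089 and 36.8 to 168 FPKM. None of 10 Kupffer cell and macrophage markers was called, but 8 had differences below 0 and 2 above (median -0.76). Their sums were 132 to 347 FPKM early and 234 to 458 late. None of 5 plasmacytoid dendritic cell markers, 1 of them tested, was called, with sums of 0.304 to 14.2 and 0.0578 to 1.0 FPKM. Mitochondrial genes took 6.52% to 40.8% of reads early and 4.13% to 8.41% late. Of 6 hepatocyte markers, 1 was called lower early and 5 had differences below 0 (median -0.67), with sums of 20510 to 58808 FPKM early and 39032 to 74626 late. Of 14 acute phase genes, 1 was called higher early and 13 had differences above 0 (median 1.30), with sums of 43394 to 80263 and 13661 to 48584 FPKM. Over the 18 livers, the mean z-score of the members correlated at r = 0.66 with that of the Kupffer cell and macrophage markers, at -0.59 with that of the erythroid markers, at 0.42 with the stellate and mesenchymal ones, at -0.38 with the 1 plasmacytoid dendritic cell marker tested and at -0.33 with the neutrophil ones, across libraries that share groups. The part of these in the members' differences was not tested.

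Hep-Org libraries were compared with liver, as the mean of the 9 liver groups, and separately with undamaged liver. Against liver, Ifit1, Ifit3, Irf7, Rsad2 and Usp18 were lower in the organoids, 5 of 9 called lower, against 13.9% of all genes called lower and 10.7% called higher. Rsad2 averaged 0.109 FPKM in Hep-Org and 1.81 in liver, a difference of -1.27 ± 0.19 (SE; limma adjusted p = 0.000163). It alone of the 9 lay below all 18 livers in both organoid libraries, as did 16% of all genes. Ifit3 averaged 0.369 and 6.28 FPKM (-2.13 ± 0.41, SE; limma adjusted p = 0.001), and Ifit1 0.519 and 3.78 (-1.5 ± 0.30, SE; limma adjusted p = 0.0014).

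Irf7 differed by -1.49 ± 0.51 (SE; limma adjusted p = 0.0304) and Usp18 by -1.0 ± 0.27 (SE; limma adjusted p = 0.0097), the latter at the size limit of a call. Ifit2 (-0.92) and Oasl2 (-0.81) passed the adjusted p but not the size. Isg15 differed by -0.72 (95% interval -1.61 to 0.17) and Irf1 by -0.07 (-0.52 to 0.38). Without Hep-Org replicate 1 the members called were Ifit3 and Rsad2, and without Hep-Org replicate 2 Ifit1, Ifit3 and Rsad2. Usp18 was lost without any of 11 single libraries. Only first-submission livers can be compared with the organoids within a submission, and there the median member difference was -1.005, with 9 of 9 below 0.

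The scale of the table matters for this comparison. As deposited, the FPKM of each library summed to between 167676 and 988797, and the median difference of all genes was -0.03. With every library rescaled to the same sum, that median moved to 1.10, and the genes called went from 1407 higher and 1832 lower to 6982 higher and 977 lower. On that scale Ifit3 was still called lower (-1.53), Irf1 was called higher (1.27), Isg15 turned to 0.62 and Usp18 to 0.02. Relative to the shifted median, 8 of the 9 members were lower, Ifit3 by 2.63 below it and Rsad2 by 2.09 below it, with Irf1 0.17 above. In the early against late comparison the median moved to -0.22 and the split from 455 higher and 579 lower to 188 and 1131, and no member changed sign.

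Against undamaged liver alone, Ifit1 (-1.21), Ifit3 (-1.82) and Rsad2 (-1.65) were lower, 3 of 9 called lower against 13.8% of all genes called lower and 10.6% higher. The limma adjusted p was 0.035 for Ifit1, 0.0216 for Ifit3 and 0.00035 for Rsad2. Rsad2 was the only one called without undamaged replicate 2 and without either Hep-Org library. Without undamaged replicate 1 the members called were Ifit2, Ifit3, Irf7, Oasl2 and Rsad2. After rescaling to the same sum, where the median of all genes moved from -0.03 to 1.31 and the calls to 7589 higher and 733 lower, Rsad2 was called lower and Isg15 (1.05) and Irf1 (1.88) higher, and Ifit2, Oasl2 and Usp18 turned above 0.

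Kupffer cell, endothelial and lymphocyte markers were near 0 in the organoids. All 10 Kupffer cell and macrophage markers were called lower than in liver, their sum being 0.152 and 3.57 FPKM, with Timd4 and Vsig4 at 0 in both libraries. All 7 endothelial markers were called lower, with sums of 0.19 and 0.482 FPKM against 16.3 to 160 in liver. The lymphocyte markers summed to 0.0157 and 0.0404 FPKM, and 9 of 10 were at 0 in both. Stellate and mesenchymal markers were not at 0, with sums of 0.995 and 3.17 FPKM against 3.02 to 54.0 in liver, and 4 of 7 were called lower. Cholangiocyte markers were higher, 5 of 5 tested being called. The part of these cell types in the members' lower levels was not tested.

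**Figure D4:**
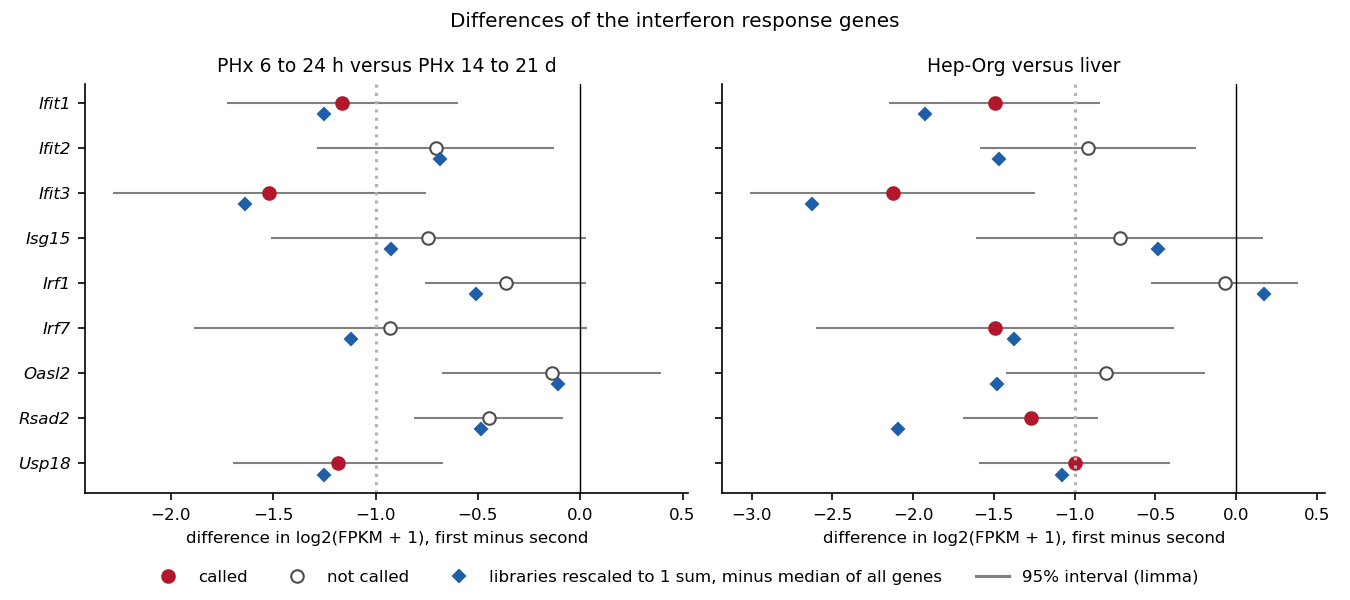
Differences in log2(FPKM + 1) of each member (circles, red where called) with 95% intervals from limma, for 6 to 24 h minus 14 to 21 d after PHx (left) and for Hep-Org minus liver (right); the dotted line marks -1. Blue diamonds give the difference after rescaling each library to the same sum, less the median of all genes, and all lie below 0 except Irf1 in Hep-Org.

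The wider pathway was read from 6 lists by role. Over all genes, 4.4% were called lower and 3.46% higher early against late, and 13.9% lower and 10.7% higher in Hep-Org against liver, and the counts of each list stand beside these shares. Since the counts move with the scaling, each is also given after every library was rescaled to the same sum. Of the 21 interferon genes listed, none passed the filter. All type I and type III interferons except Ifna4, Ifnk and Ifnz were listed at 0 in every library, Ifnb1, the interferon-beta gene, among them. Ifna4 had 0.241 FPKM in 12 h replicate 1 alone, Ifng, the interferon-gamma gene, had at most 0.262 FPKM, in 7 of 20 libraries, and Ifnk at most 0.411, in 8. Ligand transcripts were therefore at or near the detection limit at every time.

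Receptors and signal transducers, 12 genes, all tested, had no call early against late, with a median difference of -0.01. Stat2 averaged 15.1 FPKM early and 7.79 late (0.82; limma adjusted p = 0.0231, under the size of a call), and Ifnar2 stood at 7.31 and 11.7 FPKM (-0.64; 0.0237). In Hep-Org, 3 were higher than in liver and 2 lower. The receptor chains Ifngr1 (37.1 against 8.41 FPKM), Ifngr2 (14.5 against 4.96) and Ifnlr1 (1.33 against 0.103) were the higher ones, and Irf9 (2.50 against 6.06) was among the lower. After rescaling, 9 were called higher and 0 lower in Hep-Org, and 0 higher and 1 lower early.

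Sensors and adaptors, of which 15 of 17 were tested, had 1 call higher early and none lower. Myd88, the adaptor of Toll-like receptors, averaged 12.1 FPKM early and 4.48 late, a difference of 1.11 (limma adjusted p = 0.0031). The RNA sensors Ifih1 (2.93 and 6.07 FPKM, -0.95) and Ddx58 (2.44 and 4.58, -0.85) passed the adjusted p but not the size. In Hep-Org, Ikbke, a kinase that activates Irf3 and Irf7, was higher (21.2 against 4.28 FPKM), and Mavs, Zbp1 and Irf5 were lower. Rescaling turned the direction of the calls in both comparisons, to 7 higher and 1 lower in Hep-Org, and to 0 higher, the Myd88 call being lost, and 4 lower early.

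Other interferon-stimulated effectors, of which 47 of 50 were tested, had 4 called lower early and none higher, with a median of -0.38. The 4 were Apol9b (12.4 and 57.2 FPKM, -2.62), Apol9a (3.78 and 10.8, -1.68), Ube2l6, the conjugating enzyme for Isg15 (17.2 and 34.9, -1.13), and Ifi27 (41.3 and 84.2, -1.04). Parp12, Ifit3b and Cmpk2, which lies next to Rsad2 in the genome, passed the adjusted p with differences of -0.85, -0.93 and -0.83. Ifitm3 (524 and 663 FPKM), the most abundant effector, and Bst2 (127 and 199) did not pass. Between them in mean level was Ifitm2 (245 FPKM over all libraries). Over the time course Ifitm2 was highest at 48 h and lowest at 21 d, and was not called. In Hep-Org 12 of the 47 were lower and none higher, with a median of -0.68, among them Apol9a (-2.44), Slfn5 (-1.80), Parp9 (-1.16) and Dtx3l (-1.16). After rescaling, 6 were called higher and 8 lower in Hep-Org, and 0 higher and 14 lower early.

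Genes of the interferon-gamma response and antigen presentation, of which 36 of 39 were tested, had 7 called lower early and none higher, with a median of -0.61. These included the immunity-related GTPases Irgm2 (4.76 and 18.5 FPKM, -1.80; limma adjusted p = 0.000168) and Irgm1 (5.81 and 15.1, -1.31), and the guanylate-binding protein Gbp3 (1.5 and 5.44, -1.34). Nlrc5, the class I transactivator, ran opposite, at 3.09 and 1.53 FPKM (0.60, under the size of a call), and B2m (1999 and 3071 FPKM) did not pass. In Hep-Org 13 were lower and 1, the chemokine Cxcl10 (11 against 2.39 FPKM), was higher, with a median of -0.76. The class II genes H2-Eb1 (-3.70) and H2-Aa (-3.68) and the GTPase Iigp1 (-2.17) were among the lower. After rescaling, 7 were called higher and 5 lower in Hep-Org, and 0 higher and 13 lower early.

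Negative regulators, 10 genes, all tested, had a median of 0.25 early against late and 1 call. Socs3, a feedback inhibitor of cytokine receptors, averaged 37.6 FPKM early and 3.06 late, a difference of 2.88 (limma adjusted p = 0.0017). Ptpn2, a phosphatase that damps cytokine signalling, stood at 9.31 and 3.66 FPKM (0.98, just under the size of a call). In Hep-Org, Tnfaip3 was higher (9.82 against 1.20 FPKM) and Ptpn6 lower (1.60 against 7.80). After rescaling, 4 were called higher and 0 lower in Hep-Org, and 1 higher and 0 lower early. After rescaling to the same sum, the Hep-Org medians of the effector, interferon-gamma and negative regulator lists turned to 0.19, 0.22 and 0.66, each under the all-gene median of 1.10, and those of the receptor and sensor lists to 1.54 and 1.12. Early against late, the same rescaling turned the negative regulator median to -0.02.

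**Figure D5:**
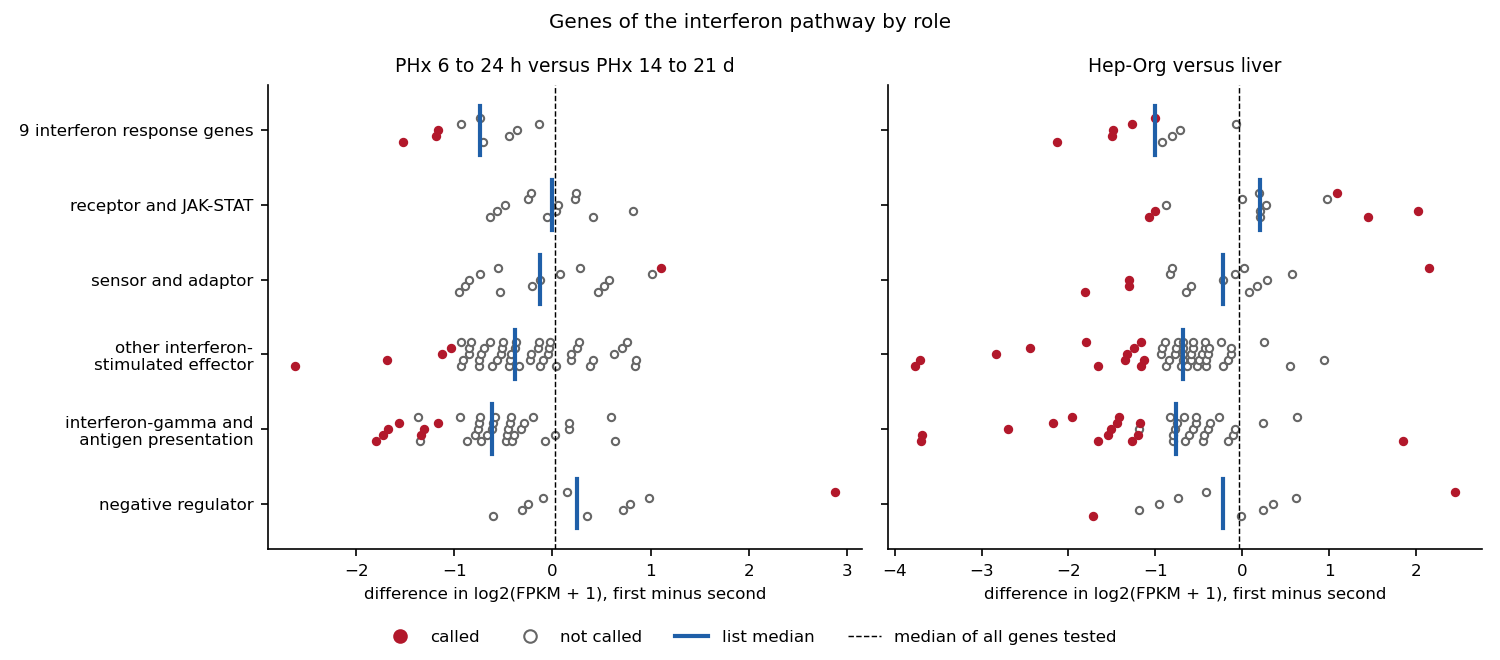
Differences in log2(FPKM + 1) of the tested genes of each list (circles, red where called), for 6 to 24 h minus 14 to 21 d (left) and Hep-Org minus liver (right); blue bars are list medians and the dashed line the median of all genes. The median of the 9 members lies at -0.74 and -1.0, those of the receptors at -0.01 and 0.20.

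The genes whose course over the 18 livers was most like the mean z-score of the members were sought among 11242 tested genes with a named symbol. Among the 10 nearest were Gbp3 (r = 0.91), Il18 (0.91), Psmb9 (0.91), Ddx60 (0.91), Ifit3b (0.90), Ifi44 (0.89), Xaf1 (0.88), Trim21 (0.85) and Igtp (0.85). Of the 10, 9 are in the pathway lists, which hold 149 genes, not all of them tested. Il18, which encodes an inflammatory cytokine, is the exception. Ifit3b is the near-identical neighbour of the member Ifit3, and how reads shared by that pair were assigned is not given. Without undamaged replicate 2, 9 of the 10 stayed and Igtp did not. These are descriptions over 18 libraries that share groups.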

How the data were processed

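RNA-seq of 18 liver and 2 Hep-Org libraries was analysed. The authors deposited 1 table of FPKM values per gene and library; alignment with HISAT2 2.0.5 to mm10 is named in the submitters' processing notes, while for the counting tool, strandedness and FPKM denominator, nothing is stated. The column of undamaged replicate 1 is spelled differently from its label and was matched by its group name. Of 54532 gene IDs, 54409 had a symbol and exon length in GENCODE M21. Whole reads were recovered from the FPKM steps (97.9% to 98.8% of low values lay within 0.05 of a whole number).

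limma 3.58.1 (R 4.3.3; trend and robust) was fitted on log2(FPKM + 1) over the genes that reached 1 FPKM in 2 or more libraries, with 1 mean per group and 10 residual degrees of freedom. A Benjamini-Hochberg adjusted p under 0.05 and a difference of at least 1 made a call. The procedure was tested on simulated data. The members, lists and comparisons were chosen with earlier results of these data known. From each list were named the 4 genes of highest mean FPKM and of largest moderated t in either main comparison, where space allowed, and called genes that were chosen after their values were seen (Apol9b, Ube2l6, Ifi27, Cxcl10). In all, 29 other settings were run, 1 of them added after seeing the data.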

Additional observations from a re-analysis of the deposited data

How the results depend on the processing

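Counts of the 9 members called are given here. A pseudocount of 5 gave 0 for Hep-Org against liver, 0 for Hep-Org against undamaged, 0 early against late and 1 over the time course. A pseudocount of 0.1 gave 1 at 6 h and 3 over the time course, and an FPKM minimum of 5 gave 1 and 3. That minimum left Ifit2, Oasl2 and Rsad2 untested, and Ifit1, Ifit3 and Usp18 stayed called over the time course. Without a filter 1 was called for Hep-Org against undamaged and 0 over the time course. Rescaling each library to the same sum gave 2 at 72 h, 2 for Hep-Org against liver and 5 early against late, and turned Usp18 in Hep-Org against liver to 0.0179. In these the cause was not tested. The time course without 48 h, 72 h and 7 d gave 3. Over the fits that left out 1 library, counts ran from 0 to 1 at 6 h, 0 to 2 at 72 h, 0 to 1 at 7 d, 1 to 5 for Hep-Org against undamaged, 2 to 5 for Hep-Org against liver, 0 to 3 early against late and 1 to 6 over the time course. Replicate numbers mark the submissions of the PHx libraries. Deviations of same-numbered libraries correlated over 0.1 in 4 of 28 pairs of times (median -0.12, highest 0.47). Such correlations over all genes cannot show whether the libraries were paired. With the replicate block 3 members were called over the time course, and no other count changed. Of 449 values of called members under alternatives, 356 stayed called, 92 were lost and 1 changed sign. Over all genes, limma-voom called 5021 for Hep-Org against liver, and 1666 early against late, a pseudocount of 5 called 1502 and 443, and 787 over the time course, where no filter gave 953 and rescaling 1006. A pseudocount of 0.1 called 1651 early against late. Depth limits the lowest member values, which rest on as few as 8 reads.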
